A study of Mus musculus with 6 samples.

Results

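Troponin and tropomyosin isoforms were followed through the polyadenylated RNA of tibialis anterior (TA) muscle, a limb muscle of mainly fast fibres. They were the 10 rows of the count table with the symbols Tnnt1, Tnnt2, Tnnt3, Tnni1, Tnni2, Tnnc1, Tnnc2, Tpm1, Tpm2 and Tpm3, out of 13226 genes, and all 10 were found and passed the filter on low counts. The muscles came from male C57BL/6 mice of 8 weeks and were taken 7 days after an injection of AAV6, a muscle-tropic adeno-associated virus, into the TA muscle. Of the 6 libraries, 3 were from muscles given AAV6:Yap-shRNA, a short hairpin RNA against the transcriptional cofactor Yap carried in a plasmid with a CMV promoter and eGFP, and 3 from control muscles given AAV6 without it. The control is an empty vector in the sample titles and AAV6:LacZ-shRNA in the vector field and the design text, so it is called control here. Both vectors went into living muscle with all its cell types, the control and treated muscles are described as opposite limbs of 3 animals, and no label says which muscles shared an animal. The comparison asks whether thin filament isoforms differed after Yap knockdown, and how fast and slow isoforms stood to each other within each muscle.

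In striated muscle, tropomyosin lies along the actin filament and covers the sites that myosin binds. Troponin sits on it as a complex of a tropomyosin-binding subunit (troponin T), an inhibitory subunit (troponin I) and a calcium-binding subunit (troponin C), and calcium on troponin C lets tropomyosin move aside. Fast and slow fibres use separate genes for each subunit: Tnnt3, Tnni2 and Tnnc2 encode the fast forms and Tnnt1, Tnni1 and Tnnc1 the slow forms, of which Tnnc1 also serves the heart. Tnnt2 encodes the troponin T of the heart and of embryonic skeletal muscle, Tpm1 the alpha and Tpm2 the beta tropomyosin, and Tpm3 the slow-fibre tropomyosin as well as forms found outside muscle.

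Library totals ranged from 11987167 to 12710393 counts, and levels are given as CPM (reads of a gene per 1e+06 reads of its library) after TMM scaling, which corrects for differences in RNA composition. Yap1, the targeted gene, was at 71.2, 65.3 and 68.4 CPM in control muscles 1 to 3 and at 32.0, 23.9 and 39.5 CPM in Yap-shRNA muscles 1 to 3. All 3 Yap-shRNA muscles were below all 3 controls, with a log2 fold change of −1.10 (SE 0.16) and an edgeR quasi-likelihood adjusted p of 0.436, so Yap1 itself did not pass the threshold of 0.05 after adjustment over 13226 genes. No gene passed it, which makes the share of genes called 0%, whereas 232 genes (1.75%) had an unadjusted p under 0.05. Summed markers of fast skeletal muscle came to 116463.6 to 140743.1 CPM (7 of 7 genes in the table) and those of slow muscle to 82.5 to 120.3 CPM (4 of 4). The fast sum includes Acta1 (35055.6 to 47995.3 CPM) and Ckm, which are not confined to fast fibres. The fast myosin gene Myh4 alone was at 30258.3 to 35688.6 CPM and the slow Myh7 at 0.691 to 3.10 CPM, so the muscles carried the markers of a fast muscle. Of 6 cardiac markers only Myh6 was in the table, at 1.15 to 3.85 CPM.

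None of the 10 isoforms passed the threshold, and none had an unadjusted p under 0.05. Of the 10 log2 fold changes 9 were negative and 1 was positive, with a median of −0.17, against 6758 negative and 6468 positive values and a median of −0.003 over all genes. Without control 2, and likewise without Yap-shRNA 2, 6 of the 10 values were negative and the median was −0.07. Fast isoforms except Tnnc2 were abundant, and their spread within a group was near or below the median of all genes. The slow troponins were rare and spread widely between muscles of the same group. Tpm3 was rare but less spread. P-values refer to these 6 muscles only and treat them as independent, although they are described as opposite limbs of 3 animals. With 3 against 3 the exact permutation test cannot go below 0.10. In whole muscle, fewer fibres of a type and less RNA per fibre cannot be told apart.

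**Figure D1:**
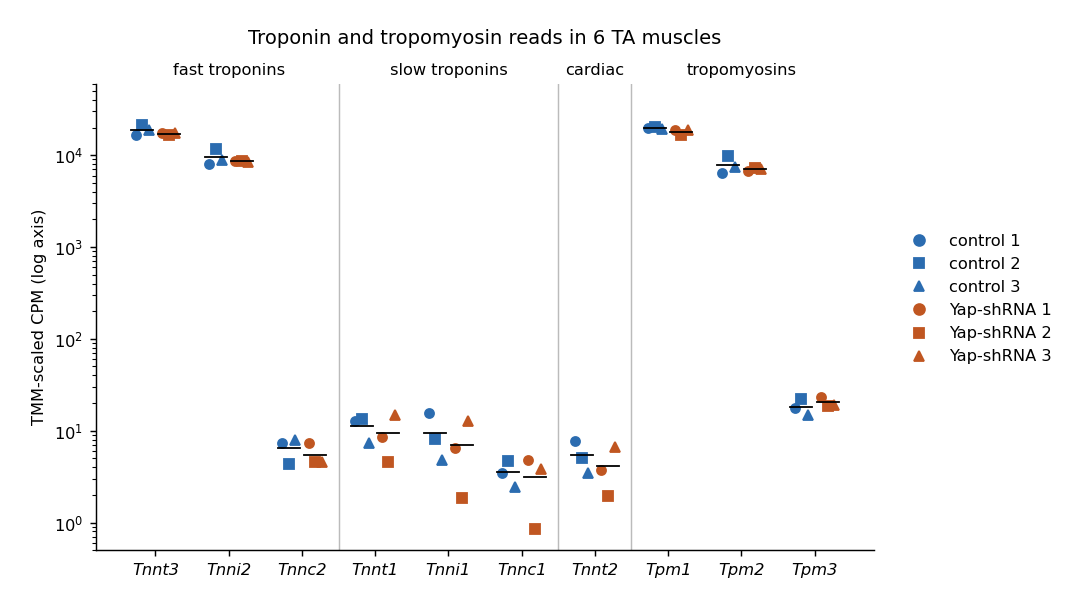
TMM-scaled CPM (log axis) of the 10 isoforms in 3 control (blue) and 3 Yap-shRNA (orange) TA muscles, with 1 point per muscle and a bar at each group mean. Tnnt3, Tnni2, Tpm1 and Tpm2 lie at or above 6434.7 CPM in all muscles, the other 6 genes lie at or below 23.0 CPM, and the groups overlap in all but Tpm1.

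The fast troponin T gene Tnnt3 (chr7:142498836-142516009, GRCm38, plus strand) was at 16417.1, 21106.5 and 18860.4 CPM in the controls and at 17334.1, 16547.7 and 17603.4 CPM in the Yap-shRNA muscles. Control 2 was highest, control 1 was lowest, and the groups overlapped. The log2 fold change was −0.13 (SE 0.11, edgeR quasi-likelihood adjusted p = 1.00). Its neighbour Tnni2 (chr7:142441808-142444410, plus strand), the fast troponin I, starts and ends upstream of Tnnt3, with 54425 bases between them. Tnni2 was at 8086.3, 11693.1 and 8957.9 CPM in the controls and at 8602.1, 8674.1 and 8515.8 CPM after Yap-shRNA. Here too control 2 was highest and control 1 lowest, and the 3 Yap-shRNA muscles lay close together between them. The log2 fold change was −0.16 (SE 0.13), with an edgeR adjusted p of 1.00, and it was 0.01 without control 2.

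The fast troponin C gene Tnnc2 was at only 7.39, 4.35 and 7.88 CPM in the controls and at 7.30, 4.53 and 4.55 CPM after Yap-shRNA, which is from 52 to 96 reads per library. The log2 fold change was −0.26 (SE 0.27, edgeR adjusted p = 1.00) and the groups overlapped. Troponin C is present once per troponin complex, as are troponin T and troponin I, yet the median per kilobase of exon was 7.40 CPM for Tnnc2 against 11035.2 for Tnnt3 and 5770.3 for Tnni2. The Tnnc2 gene (chr2:164777161-164779967, minus strand) has 7 merged exons of 800 bases in GENCODE M21. Of these, 592 bases (74.0%) are also exon of Ube2c, a ubiquitin-conjugating enzyme gene of the cell cycle on the opposite strand, and they include 477 of the 480 coding bases. Only 208 exonic bases of Tnnc2 are its own. At least 50% of the exonic bases are shared in this way in 169 of 13204 genes (1.28%), and Tnnc2 is the sole isoform gene here with any shared exonic base. Of the 50-base stretches of Tnnc2 transcripts 55.0% also occur in Ube2c transcripts, and Ube2c itself was at 2.38 to 3.61 CPM. How reads of overlapping genes were counted, and whether strand was used, is not given in the sources used here. The level of Tnnc2 is therefore uncertain, and the part of the overlap in it was not tested.

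**Figure D2:**
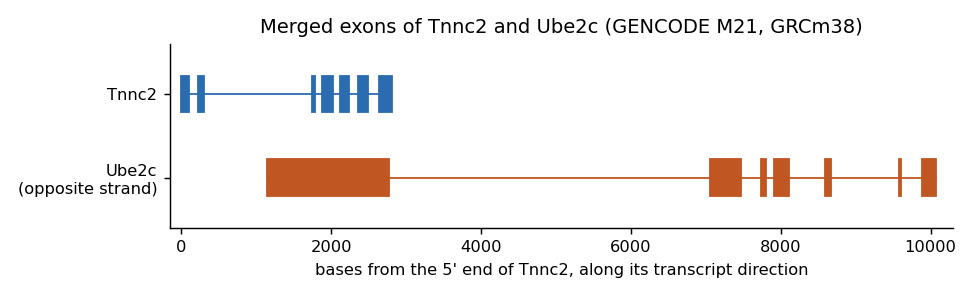
Exons of Tnnc2 and Ube2c drawn to scale along the gene pair, with the horizontal axis in bases from the 5′ end of Tnnc2, boxes for exons and lines for introns. The long last exon of Ube2c spans the exons at the 3′ end of Tnnc2, so that 592 of the 800 exonic bases of Tnnc2 are shared.

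Among the slow troponins, Tnnt1 (troponin T; chr7:4504570-4516382, minus strand) was at 12.8, 13.5 and 7.30 CPM in the controls and at 8.64, 4.61 and 14.8 CPM after Yap-shRNA. The highest and the lowest value both belonged to the Yap-shRNA group. The log2 fold change of −0.26 (SE 0.38, edgeR adjusted p = 1.00) was below its own error. The slow troponin I gene Tnni1 (chr1:135779434-135810989, plus strand) was at 15.4, 8.03 and 4.84 CPM in the controls and at 6.46, 1.84 and 12.7 CPM after Yap-shRNA, an 8.36-fold range. The Yap-shRNA muscles alone ranged from 1.84 to 12.7 CPM, nearly as far as all 6 muscles, and the log2 fold change was −0.44 (SE 0.58, edgeR adjusted p = 1.00). Tnnc1, the slow and cardiac troponin C (chr14:31208312-31211729, plus strand), had from 11 to 57 reads per library. Its levels were 3.42, 4.68 and 2.46 CPM in the controls and 4.78, 0.845 and 3.83 CPM after Yap-shRNA, with a log2 fold change of −0.17 (SE 0.50, edgeR adjusted p = 1.00). Yap-shRNA 2 was the lowest library for all 3 slow troponins. Without it the log2 fold changes were 0.07 for Tnnt1, 0.02 for Tnni1 and 0.29 for Tnnc1, so the direction of all 3 rested on that muscle. It rested on control 1 as well for Tnni1 (0.12 without it) and on control 2 as well for Tnnc1 (0.09 without it).

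Tnnt2, the cardiac and embryonic troponin T (chr1:135836354-135852260, plus strand), lies beside Tnni1, with 25364 bases between the genes. It was at 7.63, 5.10 and 3.45 CPM in the controls and at 3.69, 1.92 and 6.62 CPM after Yap-shRNA. Control 1 was highest, Yap-shRNA 2 was lowest and the groups overlapped, with a log2 fold change of −0.41 (SE 0.42, edgeR adjusted p = 1.00). Without Yap-shRNA 2 the value was −0.06, and without control 1 it was −0.07.

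The tropomyosin gene Tpm1 (chr9:67022590-67049406, minus strand) was at 19558.5, 20404.7 and 19504.1 CPM in the controls and at 18651.5, 16661.4 and 18811.0 CPM after Yap-shRNA. Each Yap-shRNA muscle was below each control, which held for no other isoform. All 3 Yap-shRNA muscles lay below all 3 controls for 1 of the 10 isoforms against 2.71% of all genes, and above them for 0 of 10 against 2.56%. Group means were 19822.4 ± 505.0 and 18041.3 ± 1197.7 CPM (SD, n = 3 each, exact permutation p = 0.10, the smallest possible). The log2 fold change was −0.14 (SE 0.09), with an edgeR adjusted p of 1.00. Tpm2 (chr4:43514711-43523765, minus strand), beta tropomyosin, was at 6434.7, 9806.9 and 7474.2 CPM in the controls and at 6772.8, 7224.6 and 7063.8 CPM after Yap-shRNA. As in Tnni2, control 2 stood highest and control 1 lowest. The log2 fold change was −0.17 (SE 0.14, edgeR adjusted p = 1.00) and became 0.01 without control 2. Summed smooth muscle markers, 7 of 8 of them in the table, were also highest in control 2, at 460.2 CPM against 259.8 to 347.3 CPM in the other muscles. Their lowest muscle was Yap-shRNA 2 and not control 1, which was at 303.2 CPM. Control 2 was highest as well for summed markers of fast skeletal muscle (140743.1 CPM), Schwann cells (149.5 CPM) and the heart (3.85 CPM). The other marker sets were highest in another muscle. The part of these sets in Tpm2 was not tested.

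Tpm3 (chr3:90072649-90100902, plus strand), whose products include the slow-fibre tropomyosin, was the isoform gene with a positive value. It was at 17.5, 22.3 and 14.9 CPM in the controls and at 23.0, 18.7 and 19.2 CPM after Yap-shRNA. The groups overlapped, with control 3 lowest and Yap-shRNA 1 highest, and the log2 fold change was 0.16 (SE 0.16, edgeR adjusted p = 1.00). Of the 50-base stretches of its transcripts 40.0% also occur in Tpm3-rs7, a related sequence listed at 2.46 to 5.20 CPM, so its count is uncertain. The gene-level count also cannot tell the muscle form of Tpm3 from its forms in other cells. Tpm4, a tropomyosin of non-muscle cells outside the group of 10, was at 28.6 to 36.0 CPM with a log2 fold change of 0.14 (SE 0.10).

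**Figure D3:**
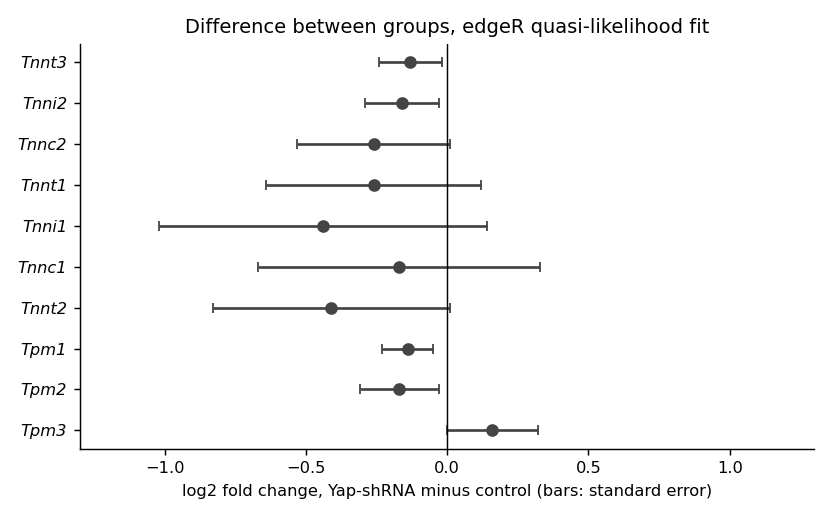
Log2 fold change (Yap-shRNA minus control) of the 10 isoforms from the edgeR quasi-likelihood fit, as points with bars of 1 SE. The values lie between −0.44 (Tnni1) and 0.16 (Tpm3).

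Levels of different genes were compared per kilobase of merged exon. On that scale the median over the 6 muscles fell in the order Tnnt3, Tnni2, Tpm1, Tpm2, Tnnc2, Tnnt1, Tnnc1, Tpm3, Tnni1 and Tnnt2, from 11035.2 to 0.567 CPM per kilobase. Tnnt3 (10370.9 to 13333.2) stood clear of Tnni2 (5401.6 to 7811.0), and Tnni2 of Tpm1 (2569.2 to 3146.4). The range of Tpm1 overlapped that of Tpm2 (2212.0 to 3371.2). Tpm2, the last of the abundant 4, stood far above Tnnc2 (5.43 to 9.85). From Tnnc2 down, each gene's range overlapped that of the next one, for example 2.09 to 6.73 for Tnnt1 and 0.811 to 4.59 for Tnnc1. Per kilobase of the principal transcript, which is much shorter than the merged exons for Tpm1, the median of Tpm1 was 10093.5 against 3405.2 CPM for Tpm2. On that scale Tpm1 (8778.4 to 10750.6) overlapped Tnni2 (10529.0 to 15225.4), and the median of Tnnc2 (8.46) fell below those of Tnnt1 (10.4) and Tpm3 (8.50), so the order depends on the length used. The share of Tpm1 in the tropomyosin reads per kilobase was thus 48.2 to 57.7% with merged exons and 69.7 to 77.0% with principal transcripts, and that of Tpm3 was 0.0437 to 0.0725% with merged exons.

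The ratio of the fast to the slow gene within a muscle needs no scaling between libraries. For troponin T, log2 of Tnnt3 over Tnnt1 was 10.33, 10.61 and 11.33 in the controls and 10.97, 11.81 and 10.21 after Yap-shRNA. Tnnt1 thus made up from 0.0278% (95% Wilson interval 0.0216 to 0.0358%) of the Tnnt1 and Tnnt3 reads in Yap-shRNA 2 to 0.0842% (0.0729 to 0.0972%) in Yap-shRNA 3. These intervals, which cover counting error only, do not overlap although both muscles had the same treatment. For troponin I, log2 of Tnni2 over Tnni1 was 9.04, 10.51 and 10.85 in the controls and 10.38, 12.20 and 9.39 after Yap-shRNA. The fast gene outnumbered the slow one 524.7 to 4707.1 times in reads, and the share of Tnni1 ran from 0.0212% (0.0143 to 0.0316%) in Yap-shRNA 2 to 0.190% (0.166 to 0.219%) in control 1. The slow share thus ranged further between muscles for troponin I than for troponin T.

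For troponin C, log2 of Tnnc2 over Tnnc1 was 1.11, −0.11 and 1.68 in the controls and 0.61, 2.42 and 0.25 after Yap-shRNA. The apparent share of Tnnc1 was 15.7 to 51.9%, a value that carries the uncertainty of Tnnc2. For tropomyosin, log2 of Tpm1 over Tpm3 was 10.13, 9.84 and 10.36 in the controls and 9.66, 9.80 and 9.93 after Yap-shRNA. In all 3 troponin ratios Yap-shRNA 2 was highest and control 3 second, an order that tropomyosin did not share.

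Between the groups, the log2 ratio differed by 0.24 for troponin T (10.76 ± 0.52 in control and 11.00 ± 0.80 after Yap-shRNA, SD, n = 3, exact permutation p = 0.70). It differed by 0.52 for troponin I (10.13 ± 0.97 and 10.66 ± 1.43, exact permutation p = 0.70) and by 0.20 for troponin C (0.89 ± 0.91 and 1.09 ± 1.17, exact permutation p = 0.90). For tropomyosin the difference was −0.31 (10.11 ± 0.26 and 9.80 ± 0.14, exact permutation p = 0.20). The troponin differences were smaller than the SD within either group, and that of tropomyosin was larger than both SDs, but the groups overlapped in all 4 pairs. The two-sided exact p-values after Benjamini-Hochberg adjustment over the 4 pairs were 0.80 to 0.90. Each troponin difference was negative without Yap-shRNA 2, at −0.16, −0.25 and −0.46 for troponin T, I and C. Without control 1 the difference for troponin I was −0.02, and without control 2 that for troponin C was −0.30.

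**Figure D4:**
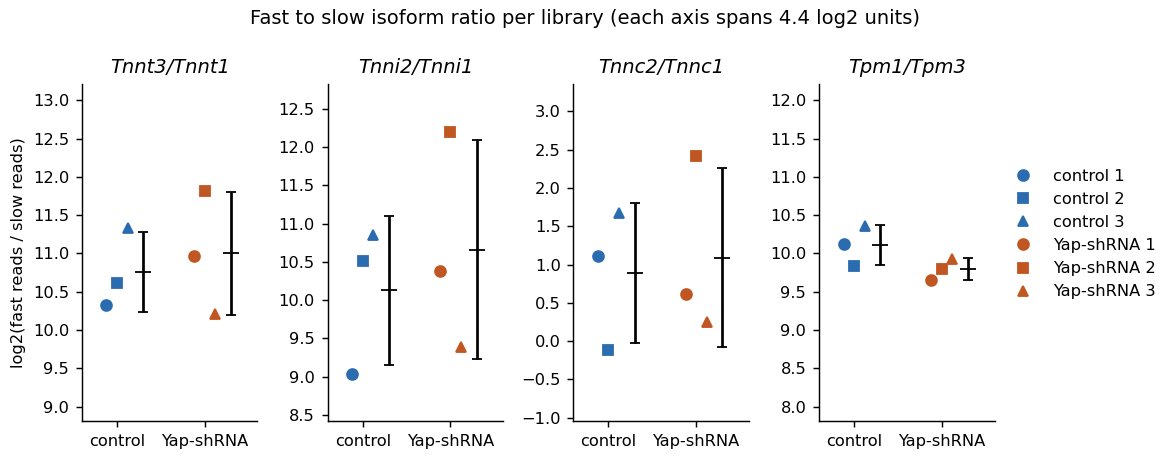
Log2 ratio of fast to slow gene counts in each of the 6 muscles for the 4 isoform pairs, with 1 point per muscle and bars for the mean ± SD of each group (n = 3). Yap-shRNA 2 is the highest point for the 3 troponin pairs, and the groups overlap in every pair.

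The isoforms differed widely in how far they varied within a group. The within-group SD of log2 CPM was 1.12 for Tnni1, 0.94 for Tnnc1, 0.72 for Tnnt2 and 0.68 for Tnnt1, more than in 99.0, 98.7, 97.5 and 96.9% of all genes. It was 0.07 for Tpm1, 0.13 for Tnnt3, 0.19 for Tnni2 and 0.22 for Tpm2, more than in 5.99, 26.7, 50.2 and 57.9% of all genes. The median over all genes was 0.194. Tpm3 was close to Tpm2 at 0.24, more than in 61.9% of genes, and Tnnc2 stood higher at 0.42, more than in 87.8%. The division thus did not follow fast against slow throughout, but the exceptions, Tnnc2 and Tpm3, are genes whose counts are uncertain. The 4 variable genes had only 11 to 198 reads per library, and the part of read number in their spread was not tested. Tnnt2 and Tnni1 ordered the 6 muscles alike, from control 1 through Yap-shRNA 3, control 2, Yap-shRNA 1 and control 3 to Yap-shRNA 2. Singled out after its values were seen, that order was found in 22 of 13226 genes (0.166%), Tnnt2 and Tnni1 included. That is near the share each order of 6 muscles would have if all orders were equally frequent. Among the developmental genes tested, Myh8, the perinatal myosin heavy chain, and Myl4, the embryonic and atrial myosin light chain, had that order. The other developmental genes did not.

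Myl4 was at 29.8, 12.2 and 9.93 CPM in the controls and at 12.0, 5.53 and 22.7 CPM after Yap-shRNA. Myh3, the embryonic myosin heavy chain, had a 14.7-fold range, with 13.6 CPM in control 1, 16.9 CPM in Yap-shRNA 3 and 1.15 CPM in Yap-shRNA 2. In these 3 myosin genes, as in Tnni1 and Tnnt2, control 1 and Yap-shRNA 3 were the 2 highest muscles. That held for 6 of the 14 developmental genes tested (with Myog, Ncam1 and Ankrd1) and not for the other 8, Actc1, Myod1 and Pax7 among them, and for 11.3% of all genes. Tendon markers (6 of 7 in the table) were summed to 679.3 CPM in control 1 and 556.4 CPM in Yap-shRNA 3, against 127.1 to 176.2 CPM in the other 4 muscles. Fibroblast markers (6 of 6) stood at 2559.4 and 2971.3 CPM in the same muscles against 1254.5 to 1505.7 CPM, and adipocyte markers (5 of 5) at 26.0 and 90.5 CPM against 13.1 to 19.8 CPM. Summed slow muscle markers (4 of 4) were at 104.6 and 120.3 CPM there and at 82.5 to 100.3 CPM in the others. Of these only Atp2a2 had its 2 highest values there, at 50.2 and 47.0 CPM against 28.3 to 43.0 CPM. Myl3 (50.8 CPM in control 1 and 67.7 CPM in Yap-shRNA 3), Myl2 and Myh7 did not. The part of these marker sets in the levels of Tnni1, Tnnt1 and Tnnt2 was not tested.

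**Figure D5:**
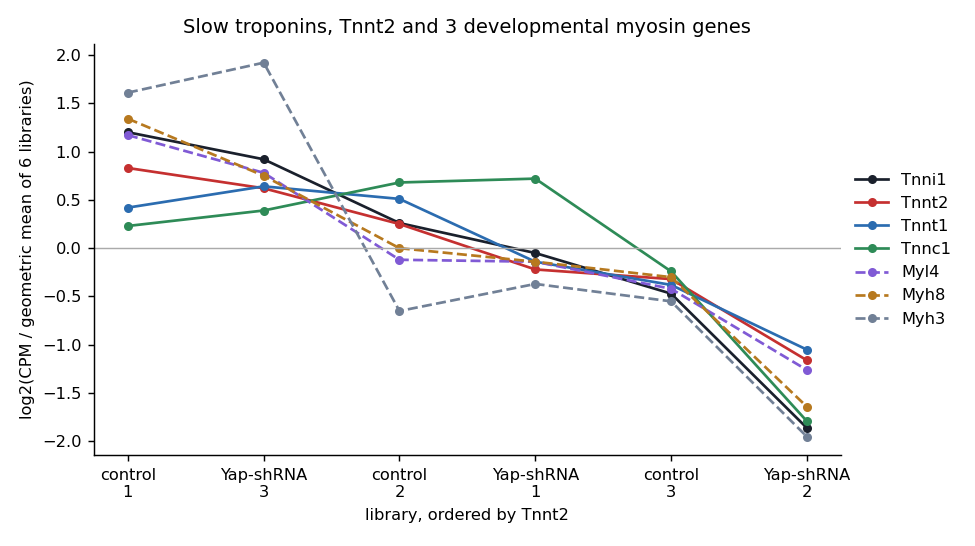
Log2 CPM of Tnni1, Tnnt2, Tnnt1, Tnnc1, Myl4, Myh8 and Myh3 in each muscle, as the difference from the gene's mean over the 6 muscles. Yap-shRNA 2 is the lowest muscle for all 7 genes, at −1.05 (Tnnt1) to −1.95 (Myh3).

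Genes with the most similar pattern over the 6 muscles were sought among 7266 genes of at least 10 CPM on average, by Pearson r of log2 CPM as a description. With the mean of the 3 slow troponins these were Rtca (r = 0.982), Capn1 (0.978), P3h1 (0.971), Lrpap1 (0.960) and Dstn (0.960). They moved far less than the troponins, with Capn1, a calcium-dependent protease, between 102.0 and 118.4 CPM. With Tnnt2 they were Capn1 (r = 0.987), P3h1 (0.978), Copb2 (0.972), Myl4 (0.969) and Tceal7 (0.959). With the mean of the 3 fast troponins they were Ngdn (r = 0.978), Ddx59 (0.975), Rbm18 (0.971), Snx15 (0.970) and Serf2 (0.968). That mean leans on the uncertain Tnnc2, whose within-group SD was 0.42 against 0.13 for Tnnt3 and 0.19 for Tnni2. Control 2 was lowest for Tnnc2 but highest for Tnnt3 and Tnni2, so the mean is not a pattern that the 3 genes shared. An r over 0.95 was found for 9 genes with the slow troponins, 8 with Tnnt2 and 8 with the fast troponins. All values of a muscle share its 1 library.

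By the quasi-likelihood test, 0 genes passed the threshold in any of the 5 lists of partner genes that follow, whereas by the likelihood ratio test of edgeR Actc1 was among the 5 genes of the whole table that did. Of 22 thin filament genes 20 were tested, with 8 positive and 12 negative log2 fold changes, and a median of −0.03. The highest was Klhl40, a nebulin-stabilising protein, at 0.31 (SE 0.13), and the lowest Actc1, the cardiac and embryonic actin, at −1.14 (SE 0.24), the 2 genes of this list with an unadjusted p under 0.05. All 17 genes of the slow fibre list were tested, a list that includes genes not confined to slow fibres, such as Myh2 and Actn2. Of these 17, 10 were positive and 7 negative, with a median of 0.01. Myl2 (slow myosin light chain) was highest at 0.88 (SE 0.29) and Pln (phospholamban) lowest at −0.48 (SE 0.33). Myl2 and Casq2, the slow and cardiac calsequestrin (−0.47, SE 0.10, chosen after its values were seen), were the 2 with an unadjusted p under 0.05. Of the 17 fast fibre genes 1 was positive and 16 were negative, with a median of −0.10, Myh13 highest at 0.08 (SE 0.46) and Casq1, the fast calsequestrin, lowest at −0.26 (SE 0.12). None of them had an unadjusted p under 0.05, and 11 of 17 were negative without control 3 and 12 of 17 without Yap-shRNA 2. The 24 fibre type regulators were 13 positive and 11 negative, with a median of 0.01, from Eya4 at −0.14 (SE 0.30) to Nfatc2 at 0.22 (SE 0.16), and none had an unadjusted p under 0.05. Of 16 developmental genes 14 were tested, 8 positive and 6 negative, with a median of 0.06 and Chrng, the embryonic acetylcholine receptor subunit, highest at 1.05 (SE 0.83) and Actc1 again lowest.

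Yap acts on DNA through TEAD factors, which bind the M-CAT motif, known from the troponin T promoter of heart muscle. The letters CATTCC were sought on both strands in the 250 bases before the start of each gene (RefSeq, GRCm38.p6), for which 8 of the 10 isoforms had a window. Tnni1, Tnnt2 and Tpm3 had 2 windows each, and shares of all promoters are counted per window and not per gene. The letters occurred in 1 window each of Tnnt2, Tpm1 and Tnnc1, against 12.6% of all 32851 promoters of that length. These 3 windows are shown because they hold the letters, in the direction of the gene, with CATTCC or its complement GGAATG in capitals.
Tnnt2, chr1:135836084-135836333, plus strand: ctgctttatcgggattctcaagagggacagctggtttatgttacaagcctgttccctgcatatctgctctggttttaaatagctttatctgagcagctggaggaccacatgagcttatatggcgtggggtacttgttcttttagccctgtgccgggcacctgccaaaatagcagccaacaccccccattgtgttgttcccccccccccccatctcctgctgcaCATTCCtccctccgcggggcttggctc
Tpm1, chr9:67049214-67049463, minus strand: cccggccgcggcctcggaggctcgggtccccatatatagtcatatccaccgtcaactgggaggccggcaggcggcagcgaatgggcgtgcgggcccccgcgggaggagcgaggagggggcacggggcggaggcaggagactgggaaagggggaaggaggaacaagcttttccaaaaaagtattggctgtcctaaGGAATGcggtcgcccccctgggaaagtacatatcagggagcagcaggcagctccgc
Tnnc1, chr14:31208062-31208311, plus strand: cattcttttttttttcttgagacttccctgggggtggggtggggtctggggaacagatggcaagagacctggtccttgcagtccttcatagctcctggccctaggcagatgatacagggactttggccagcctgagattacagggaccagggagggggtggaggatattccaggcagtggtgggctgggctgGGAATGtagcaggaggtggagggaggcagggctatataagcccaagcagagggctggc

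In Tnnt2 the letters stand 27 to 22 bases before the start, in 1 of its 2 windows, in Tpm1 56 to 51 and in Tnnc1 58 to 53. Of the isoform genes that carry them, Tpm1 had non-overlapping groups, while Tnnt2 and Tnnc1 overlapped and none passed the threshold. The E-box CANNTG, bound by myogenic factors, occurred in every window of the 8 genes against 66.2% of promoters, and TATAAA only in Tnnt1 (12.4% of promoters). The MEF2 and CArG boxes were found in 0 of the 8, against 2.92 and 1.47% of promoters. A match is a description of these letters and not a site of binding.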

How the data were processed

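RNA of 6 TA muscles, 3 per group, was sequenced by the authors after TRIzol extraction, polyA+ selection and TruSeq library preparation. The authors deposited raw read counts per gene on GRCm38, and the submitters' processing notes name bcl2fastq 2.20.0.422. The aligner, counter and strand setting are not given in the sources used here. The table has no row that sums below 60 reads, so low genes had been removed before deposit. The article at hand describes RNA of sorted nuclei from another series and was used for style only.

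After TMM scaling, the groups were compared by the quasi-likelihood test of edgeR 4.0.16 in R 4.3.3, without covariates, over 13226 genes with at least 10 counts per library on average. P-values were adjusted by Benjamini-Hochberg, and genes under 0.05 were called. The error of a fold change was derived from its value and its test statistic. The biological coefficient of variation was 15.7%. Fast to slow ratios were compared by exact two-sided permutation tests in scipy 1.17.1. Alternatives were DESeq2 1.42.0, the likelihood ratio test, limma-voom (limma 3.58.1), upper-quartile scaling, library totals, a count filter, a replicate block and each muscle left out. Fits were tested on simulated counts.

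Gene models were GENCODE M21 (13204 of 13226 IDs matched) and promoters RefSeq, GRCm38.p6. Named genes were the isoforms, Yap1, the 5 genes most like each pattern and the extremes of each list. Casq2, Atp2a2, Myl3, Myh7, Myh8, Myh3, Myh2, Myh4, Actn2, Acta1, Ckm, Mir155hg, Tpm4, Ube2c and Tpm3-rs7 were named after their values were seen. The isoforms and lists were chosen with earlier results of these data known.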

Additional observations from a re-analysis of the deposited data

How the results depend on the processing

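None of the 10 isoforms passed the threshold under any alternative, and 133 of their 140 fold changes kept their direction, with adjusted p-values of 0.677 to 1.00. Many of the 140 values are refits of the same 6 muscles and are not separate checks. Without a count filter the same 13226 genes were tested as in the main fit, so that setting could not differ. The 7 that reversed did so when 1 muscle was left out: without control 2, Tnni2 (0.01), Tnnc1 (0.09) and Tpm2 (0.01), without control 1, Tnni1 (0.12), and without Yap-shRNA 2, Tnnt1 (0.07), Tnni1 (0.02) and Tnnc1 (0.29). Negative values numbered 9 of 10 under every other setting but 8 without control 1, 6 without control 2 and 6 without Yap-shRNA 2. An unadjusted p under 0.05 was found for 3 isoforms without control 1, 1 without control 2 and 1 without Yap-shRNA 3. Over all genes it was found for 946 of 13154, 314 of 13186 and 184 of 13159 in these settings, against 232 of 13226 with all muscles. Yap1 was at −1.10 with DESeq2 (adjusted p = 5.85e-07) and the likelihood ratio test (adjusted p = 2.22e-06), past the threshold with both, and at −1.29 to −0.93 with a muscle left out. The count of genes past the threshold was 0 by quasi-likelihood, 5 with DESeq2, 5 with the likelihood ratio test (Actc1 among them), 0 with limma-voom (197 at an unadjusted p under 0.05), and 0 to 1 with a muscle left out, the 1 being Mir155hg without Yap-shRNA 3. The cause was not tested. With each muscle left out, the fold changes ran from −0.76 to 0.07 for Tnnt1, −1.20 to 0.12 for Tnni1, −0.26 to 0.01 for Tnni2, −0.60 to 0.29 for Tnnc1 and −0.30 to 0.01 for Tpm2. The isoforms that kept their direction ran from −0.95 to −0.06 (Tnnt2), −0.22 to −0.04 (Tnnt3), −0.53 to −0.11 (Tnnc2), −0.17 to −0.08 (Tpm1) and 0.03 to 0.33 (Tpm3).

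With a muscle left out, the group difference of the log2 ratio ran from −0.16 to 0.63 for Tnnt3/Tnnt1, −0.25 to 1.16 for Tnni2/Tnni1, −0.46 to 0.62 for Tnnc2/Tnnc1 and −0.44 to −0.18 for Tpm1/Tpm3. It was negative for Tnnt3/Tnnt1 without Yap-shRNA 2 (−0.16), for Tnni2/Tnni1 without control 1 (−0.02) or Yap-shRNA 2 (−0.25), and for Tnnc2/Tnnc1 without control 2 (−0.30) or Yap-shRNA 2 (−0.46). With Tpm2 in place of Tpm3 the tropomyosin difference was 0.01. Principal transcript lengths, an alternative chosen after seeing the data, moved the median Tpm1 share from 54.1 to 74.4%.

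The labels do not tie replicate numbers to animals, and same-numbered muscles deviated together with correlations of −0.065, 0.196 and −0.315, so the numbers do not show a pairing. Over all pairs of a control and a Yap-shRNA muscle, the correlations ran from −0.362 (control 1 with Yap-shRNA 2) to 0.383 (control 1 with Yap-shRNA 3). Whether any such pair came from 1 animal was not tested. The replicate block gave 0 genes past the threshold (213 at an unadjusted p under 0.05) and a median of −0.20 over the isoforms. Slow troponins rest on 11 to 198 reads per library.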
